A study of Mus musculus with 7 samples.

Results

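Hox genes were examined in freshly sorted mouse fetal mammary cells, as 38 protein-coding genes listed by symbol, and 37 of them were found among the 38579 gene entries of the deposited expression table. Hoxd4 is not analysed here. The 37 genes comprise 10 of cluster a, 10 of cluster b, 9 of cluster c and 8 of cluster d. Of these, 22 had a level of at least 1 FPKM in 2 or more libraries and were tested, and the other 15 are described by their levels. FPKM counts sequenced fragments per unit of transcript length and of library size, so that levels of different genes can be compared.

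Hox genes encode homeodomain transcription factors that lie in 4 clusters, named a to d, each on its own chromosome. Within a cluster the genes are numbered by paralog group, and the low numbers are used nearer to the head of the embryo and earlier, while the high numbers are used nearer to the tail. Fibroblasts and other connective tissue cells of adults keep a Hox pattern of the body level they come from. The fetal mammary rudiment is a bud of skin epithelium inside a dedicated mesenchyme, and mouse mutants of several Hox genes have mammary defects.

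All libraries came from embryos of the CD1 strain at day E17.5. The Sox10+EpCAM+ fraction (2 libraries) was sorted for a Sox10-Venus fluorescent reporter and the epithelial adhesion molecule EpCAM, and its partner, EpCAM-negative stroma, is a single library, also Sox10-negative and lineage-negative by its title. The CD24+CD49f+ fraction (2 libraries) and CD24low stroma (2 libraries) were sorted on these surface proteins after removal of lineage-positive cells. Both the Sox10+EpCAM+ and the CD24+CD49f+ fraction carry the cell type label of fetal mammary stem cells (fMaSC), and each is a sorted population that may hold several cell types. Only one of the 2 Sox10+EpCAM+ titles mentions lineage depletion, although both column names do. The labels call the libraries biological replicates and do not give the number of embryos or the gland pairs pooled, which matters for genes of body position.

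The libraries held an estimated 22600000 to 33900000 fragments each, so that 1 fragment on a 2 kb transcript was worth 0.0147 to 0.0221 FPKM. Summed FPKM ran from 378952 to 752737, and with every library scaled to the same sum (TPM scaling) the median log2 fold of all genes moved to -0.60, against 0.09 as deposited, when Sox10+EpCAM+ fMaSC were compared with EpCAM-negative stroma. The fractions were described with markers. The epithelial markers include Epcam, whose protein defined the Sox10+EpCAM+ and EpCAM-negative sorts, so its difference between them follows from the sort. The summed FPKM of 8 epithelial markers was 795 and 954 in Sox10+EpCAM+ fMaSC, 8.01 in EpCAM-negative stroma, 563 and 360 in CD24+CD49f+ fMaSC, and 5.10 and 3.62 in CD24low stroma. For 8 fibroblast markers, among them the collagen gene Col1a1, the sums were 45.9 and 75.0 in Sox10+EpCAM+ fMaSC, 6167 in EpCAM-negative stroma, 2083 and 3332 in CD24+CD49f+ fMaSC, and 7269 and 6745 in CD24low stroma. The CD24+CD49f+ libraries thus held both epithelial and fibroblast transcripts, with fibroblast marker levels at 38.6% of CD24low stroma, and the Sox10+EpCAM+ libraries held 0.980% of the fibroblast marker level of EpCAM-negative stroma. As deposited, the Sox10+EpCAM+ libraries lay above EpCAM-negative stroma in glia and melanoblast markers (16.4 and 24.7 against 3.04 FPKM). The same held for leukocyte markers (12.3 and 15.4 against 7.96 FPKM). They lay below it in endothelial, pericyte and skeletal muscle markers. The part of any of these transcripts in the Sox10+EpCAM+ Hox levels was not tested. Because these are bulk samples, fewer cells that use a gene and less RNA of it in each cell cannot be told apart.

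Hox transcripts were scarce in Sox10+EpCAM+ fMaSC and plentiful in the other 3 fractions. The summed level of the 37 genes was 7.26 and 8.95 FPKM in Sox10+EpCAM+ fMaSC, 96.2 FPKM in EpCAM-negative stroma, 46.9 and 64.2 FPKM in CD24+CD49f+ fMaSC, and 105 and 83.4 FPKM in CD24low stroma. Sox10+EpCAM+ fMaSC thus held 8.42% of the Hox FPKM of its stroma, while CD24+CD49f+ fMaSC held 59.0% of that of CD24low stroma. Under TPM scaling these shares were 4.84% and 50.5%, and the percentages of stroma given for clusters and single genes are on the deposited scale. By cluster, the Sox10+EpCAM+ level was 1.72% of EpCAM-negative stroma for cluster a, 1.37% for cluster c and 4.02% for cluster d, but 28.1% for cluster b. In CD24+CD49f+ fMaSC the clusters lay closer together, at 54.6% of CD24low stroma for a, 60.5% for b, 56.4% for c and 76.0% for d. A mean of 1 FPKM or more was reached by 2 Hox genes in Sox10+EpCAM+ fMaSC, by 21 in EpCAM-negative stroma, by 15 in CD24+CD49f+ fMaSC and by 21 in CD24low stroma.

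**Figure D1:**
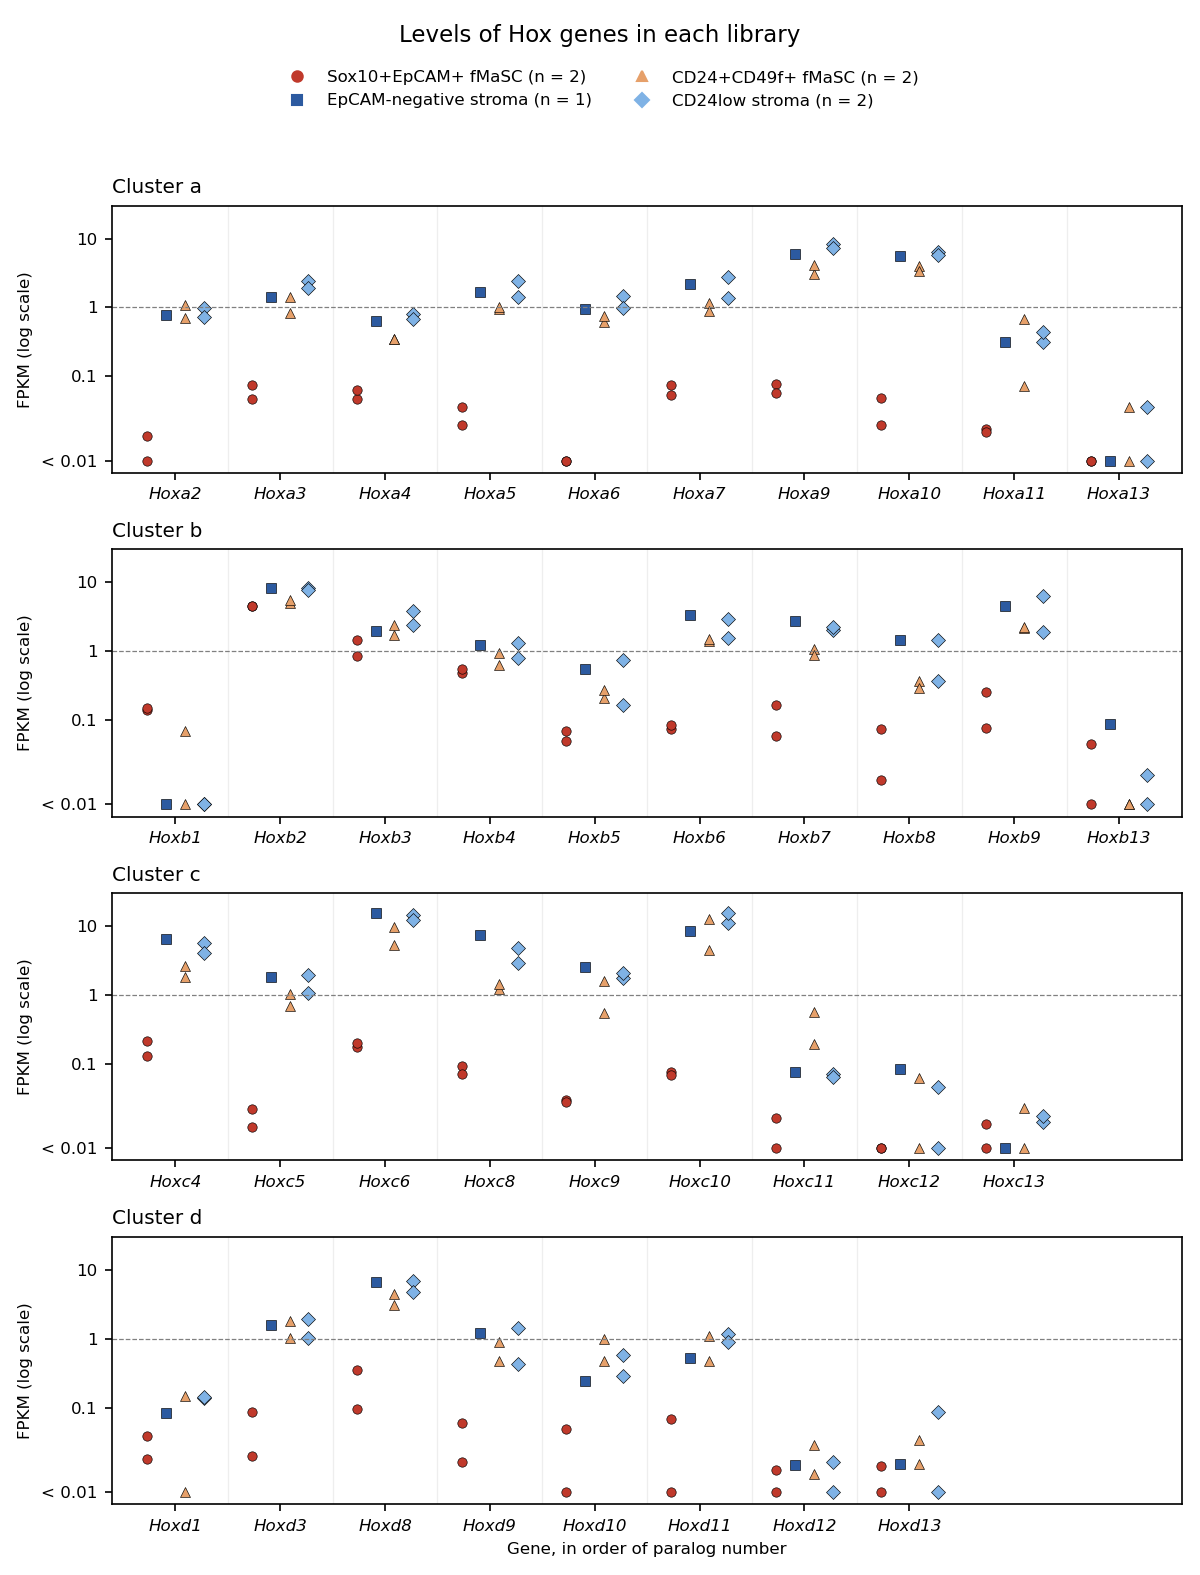
FPKM of the 37 Hox genes on a log axis, in 4 panels by cluster and in order of paralog number. Each point is a library, values under 0.01 FPKM stand at the lowest tick, and the dashed line marks 1 FPKM. The Sox10+EpCAM+ points lie far below the others for most genes, with Hoxb2, Hoxb3 and Hoxb4 as exceptions, and the genes numbered 12 and 13 are low in every library.

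In the comparison of Sox10+EpCAM+ fMaSC with EpCAM-negative stroma, 18 of the 22 tested Hox genes were lower in fMaSC at an adjusted p under 0.05 (limma on log2(FPKM + 1), Benjamini-Hochberg over 14418 genes), where 13.6% of all tested genes were called lower. None was higher, where 12.5% of all tested genes were called higher. The median log2 fold of the 22 genes was -1.66, against 0.09 for all tested genes. A gene could pass the level filter through its stroma libraries alone, so these counts describe the tested genes only. Without the filter, 18 of the 37 were called lower, against 8.34% of all genes. Both Sox10+EpCAM+ libraries lay below the stroma library for 34 of the 37 genes, which was so for 39.2% of all genes. The EpCAM-negative group has no replicate, and its spread is taken from the other groups. With either Sox10+EpCAM+ library left out, 9 calls remained, the same 9 genes each time: Hoxa9, Hoxa10, Hoxb6, Hoxb7, Hoxc4, Hoxc6, Hoxc8, Hoxc10 and Hoxd8.

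Cluster c (chromosome 15) held the most abundant Hox genes of the stroma. Hoxc6, which is known for its expression in mammary mesenchyme and epithelium, had 0.177 and 0.203 FPKM in Sox10+EpCAM+ fMaSC, 15.6 FPKM in EpCAM-negative stroma, 5.26 and 9.57 FPKM in CD24+CD49f+ fMaSC, and 14.3 and 12.1 FPKM in CD24low stroma. Its Sox10+EpCAM+ values correspond to about 7.6 and 9.4 fragments, against about 622 fragments in the EpCAM-negative library. Its fold was -3.80 ± 0.33 (log2, SE; adjusted p = 0.000893), the largest of the 22 tested genes on the log2(FPKM + 1) scale, which understates the folds of lower genes. As a plain ratio of FPKM, 6 genes with lower stroma levels were reduced more, with Hoxa10 in first place. Both fMaSC groups lay below every stroma library.

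Hoxc10, a gene of the lumbar level of the trunk, had 0.0768 and 0.0702 FPKM in Sox10+EpCAM+ fMaSC, 8.34 FPKM in EpCAM-negative stroma, 4.55 and 12.7 FPKM in CD24+CD49f+ fMaSC, and 11.2 and 15.7 FPKM in CD24low stroma. Its CD24+CD49f+ libraries differed widely and overlapped CD24low stroma, and its fold in the Sox10+EpCAM+ sort was -3.12 ± 0.52 (adjusted p = 0.00783). Hoxc8, which in the mouse can start mammary placodes when expressed in surface ectoderm, had 0.0940 and 0.0716 FPKM in Sox10+EpCAM+ fMaSC, 7.40 FPKM in EpCAM-negative stroma, 1.22 and 1.46 FPKM in CD24+CD49f+ fMaSC, and 4.84 and 2.95 FPKM in CD24low stroma. Both fMaSC groups were below both stroma groups without overlap, with a log2 fold of -2.96 ± 0.27 (adjusted p = 0.00105) in the Sox10+EpCAM+ sort. Hoxc4, which also acts in lymphocytes, had 0.129 and 0.213 FPKM in Sox10+EpCAM+ fMaSC and 6.49 FPKM in EpCAM-negative stroma, a fold of -2.68 ± 0.27 (adjusted p = 0.00141). The remaining tested genes of the cluster, Hoxc5 and Hoxc9 (a regulator of thoracic motor neurons), were also lower, with log2 folds of -1.47 and -1.79 (adjusted p = 0.0102 and 0.00956). Those calls were lost without either Sox10+EpCAM+ library.

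Cluster a (chromosome 6) repeated this pattern at lower levels. Hoxa9, a regulator of blood progenitors and one of the paralog 9 genes whose joint loss impairs the mouse mammary gland in pregnancy, had 0.0764 and 0.0578 FPKM in Sox10+EpCAM+ fMaSC, 6.01 FPKM in EpCAM-negative stroma, 3.04 and 4.17 FPKM in CD24+CD49f+ fMaSC, and 8.39 and 7.21 FPKM in CD24low stroma. Hoxa10, known for its role in the uterus, had 0.0480 and 0.0198 FPKM in Sox10+EpCAM+ fMaSC, 5.49 FPKM in EpCAM-negative stroma, 3.95 and 3.35 FPKM in CD24+CD49f+ fMaSC, and 6.33 and 5.80 FPKM in CD24low stroma. For both genes the CD24+CD49f+ libraries lay between Sox10+EpCAM+ fMaSC and all stroma libraries. In the Sox10+EpCAM+ sort their log2 folds were -2.72 ± 0.23 (adjusted p = 0.000780) and -2.65 ± 0.19 (adjusted p = 0.000527). Hoxa10 was estimated at about 3.3 and 1.5 fragments in the Sox10+EpCAM+ libraries, against about 355 in EpCAM-negative stroma, which leaves its fMaSC level poorly determined and far below the stroma. Hoxa3 (a gene of thymus and parathyroid formation), Hoxa5 (which patterns lung and trunk) and Hoxa7 were also lower, with log2 folds of -1.18, -1.38 and -1.57 (adjusted p = 0.0150, 0.00952 and 0.0132), calls that were lost without either Sox10+EpCAM+ library. Of the exons of Hoxa7, 20.4% overlap the antisense gene Hoxaas3. Hoxa2, Hoxa4 and Hoxa6 did not pass the level filter. They reached at most 0.0643 FPKM in Sox10+EpCAM+ fMaSC, with Hoxa6 listed at 0 in both libraries, against 0.629 to 0.941 FPKM in EpCAM-negative stroma.

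In cluster d (chromosome 2), Hoxd8 was the most abundant gene. It had 0.0948 and 0.349 FPKM in Sox10+EpCAM+ fMaSC, 6.62 FPKM in EpCAM-negative stroma, 3.13 and 4.46 FPKM in CD24+CD49f+ fMaSC, and 6.89 and 4.81 FPKM in CD24low stroma. Both fMaSC groups lay below every stroma library, and its log2 fold in the Sox10+EpCAM+ sort was -2.65 ± 0.30 (adjusted p = 0.00198). Hoxd3, a gene of neck vertebrae, had a fold of -1.29 ± 0.31 (adjusted p = 0.0273), which was lost under TPM scaling, without the level filter and without either Sox10+EpCAM+ library. Its listed locus encloses the annotated Hoxd4 gene, and the genes share 388 exon bases, and the noncoding gene Gm28230 covers 53.1% of its exon bases, so reads of these genes cannot be told apart there. Hoxd9, with 0.0166 and 0.0606 FPKM in Sox10+EpCAM+ fMaSC and 1.21 FPKM in EpCAM-negative stroma, did not pass the test (-1.09 ± 0.35, adjusted p = 0.0654). Hoxd1, used by pain-sensing neurons in the mouse, stayed at 0.148 FPKM or less in every library.

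Cluster b (chromosome 11) was divided. Its low-numbered genes Hoxb2, Hoxb3 and Hoxb4 were the 3 highest Hox genes of Sox10+EpCAM+ fMaSC, and they are grouped here with their values already known. Hoxb2, which patterns the hindbrain, had 4.49 and 4.49 FPKM in Sox10+EpCAM+ fMaSC, 8.14 FPKM in EpCAM-negative stroma, 5.01 and 5.46 FPKM in CD24+CD49f+ fMaSC, and 8.25 and 7.74 FPKM in CD24low stroma. All 4 fMaSC libraries lay below all 3 stroma libraries, by a modest margin. Its log2 fold was -0.74 ± 0.19 (adjusted p = 0.0341) in the Sox10+EpCAM+ sort, a call that was lost in 6 of 12 alternatives, with an adjusted p of up to 0.194.

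Hoxb3, another hindbrain and neck gene, had 0.849 and 1.43 FPKM in Sox10+EpCAM+ fMaSC, 1.96 FPKM in EpCAM-negative stroma, 1.71 and 2.41 FPKM in CD24+CD49f+ fMaSC, and 3.79 and 2.39 FPKM in CD24low stroma. Hoxb4, known for expanding blood stem cells, had 0.486 and 0.552 FPKM in Sox10+EpCAM+ fMaSC, 1.23 FPKM in EpCAM-negative stroma, 0.626 and 0.930 FPKM in CD24+CD49f+ fMaSC, and 1.32 and 0.803 FPKM in CD24low stroma. Neither passed the test in the Sox10+EpCAM+ sort, with log2 folds of -0.48 ± 0.31 (adjusted p = 0.281) for Hoxb3 and -0.56 ± 0.23 (adjusted p = 0.129) for Hoxb4. In percent of EpCAM-negative stroma, Sox10+EpCAM+ fMaSC held 55.2% of the Hoxb2 level, 58.2% of Hoxb3 and 42.1% of Hoxb4. For the other 19 tested genes this share ran from 0.618% (Hoxa10) to 6.39% (Hoxd11). These values rest on 33.8 or more estimated fragments per library for each of the 3 genes.

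From Hoxb5 onward the cluster fell to the level of the others in Sox10+EpCAM+ fMaSC. Hoxb5, which lies next to Hoxb4, had 0.0505 and 0.0693 FPKM there, against 0.556 FPKM in EpCAM-negative stroma, and was too low to be tested. Hoxb6 had 0.0732 and 0.0851 FPKM in Sox10+EpCAM+ fMaSC, 3.39 FPKM in EpCAM-negative stroma, 1.42 and 1.51 FPKM in CD24+CD49f+ fMaSC, and 2.92 and 1.54 FPKM in CD24low stroma. Hoxb7 had 0.0596 and 0.163 FPKM in Sox10+EpCAM+ fMaSC, 2.74 FPKM in EpCAM-negative stroma, 1.07 and 0.895 FPKM in CD24+CD49f+ fMaSC, and 2.05 and 2.25 FPKM in CD24low stroma. Their log2 folds in the Sox10+EpCAM+ sort, -2.02 ± 0.28 (adjusted p = 0.00409) and -1.75 ± 0.19 (adjusted p = 0.00169), kept their call in all 12 alternatives. Hoxb8 and Hoxb9 (another of the paralog 9 genes needed by the mouse mammary gland) were also lower, with log2 folds of -1.24 and -2.25 (adjusted p = 0.0448 and 0.0234). Both calls were lost without the level filter and without either Sox10+EpCAM+ library. At the other end of the cluster, Hoxb1, a hindbrain gene, was the only one of the 37 that was higher in both Sox10+EpCAM+ libraries than in stroma. It had 0.139 and 0.148 FPKM, about 7.9 and 9.0 fragments, and was listed at 0 in EpCAM-negative stroma, at 0.0693 and 0 FPKM in CD24+CD49f+ fMaSC and at 0 in both CD24low libraries. It was too low to be tested.

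**Figure D2:**
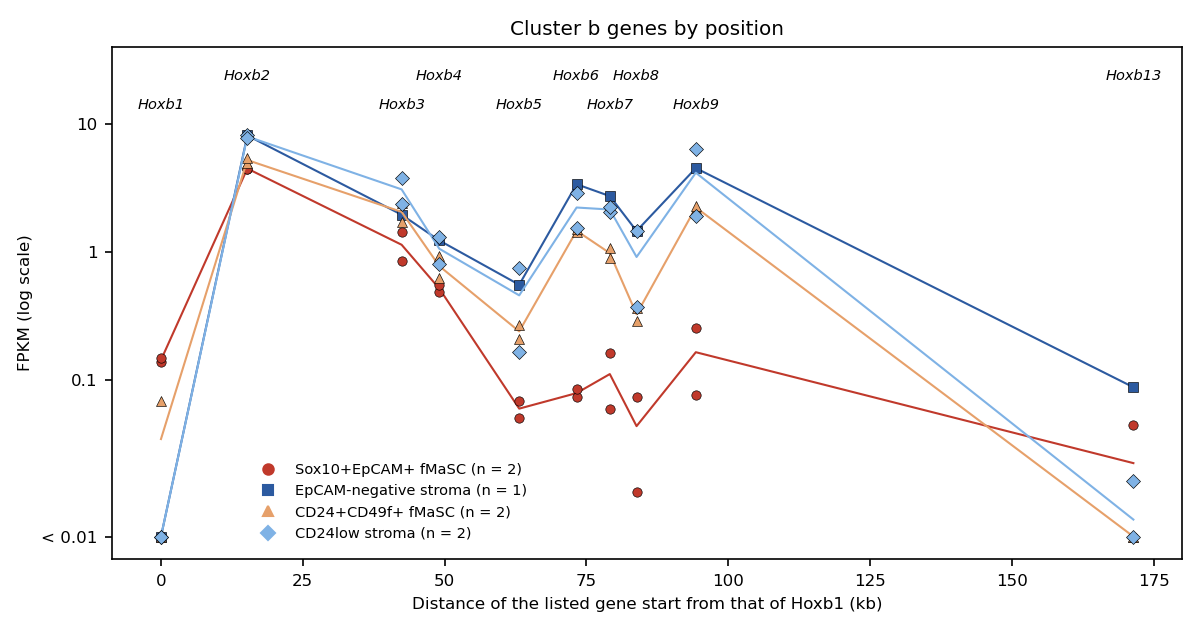
FPKM of the cluster b genes (log axis) against the distance of each listed gene start from that of Hoxb1, in kb. Points are libraries and lines join group means, with values under 0.01 FPKM at the lowest tick. The red Sox10+EpCAM+ line stays near the others over Hoxb2, Hoxb3 and Hoxb4 and lies well below them from Hoxb5 to Hoxb9.

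Part of this region is transcribed on both strands. The antisense noncoding gene Hoxb3os shares 953 exon bases with Hoxb2, 27.3% of its annotated exon length, and 2250 with Hoxb3, 52.9%. Hoxb3os had 3.02 and 2.84 FPKM in Sox10+EpCAM+ fMaSC, 3.45 FPKM in EpCAM-negative stroma, 3.54 and 4.04 FPKM in CD24+CD49f+ fMaSC, and 4.37 and 3.08 FPKM in CD24low stroma. Its levels thus spanned 2.84 to 4.37 FPKM over the 7 libraries, with the Sox10+EpCAM+ libraries at the low end. The strand setting of the counting is not given in the sources used here, so reads of Hoxb3os cannot be told apart from those of Hoxb2 and Hoxb3 in the shared exons. The annotation lists no exon overlap with another gene for Hoxb4.

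Upstream sequences are shown for genes of both kinds: Hoxb4, which kept 42.1% of the EpCAM-negative stroma level in Sox10+EpCAM+ fMaSC, and Hoxb8, Hoxa9, Hoxa10 and Hoxd8, which kept 2.99%, 1.12%, 0.618% and 3.36%. Each runs over the 250 bases before a RefSeq transcript start (GRCm38.p6), 5′ to 3′ on the gene's strand. The intervals are chr11:96318017-96318266 (plus strand) for Hoxb4, chr11:96281655-96281904 (plus) for Hoxb8, chr6:52227371-52227620 (minus) for Hoxa9, chr6:52234940-52235189 (minus) for 1 of the 2 RefSeq starts of Hoxa10, and chr2:74704365-74704614 (plus) for Hoxd8. Capitals mark matches on either strand. The motifs searched were TATAAA, the core promoter box of that name. The second was TGATNNAT, a joint site of PBX and HOX proteins. Next was TGACAG, a MEIS site. Last was AGGTCA, a nuclear receptor motif that retinoic acid receptors use. Matches of different motifs did not overlap in the windows shown.
Hoxb4: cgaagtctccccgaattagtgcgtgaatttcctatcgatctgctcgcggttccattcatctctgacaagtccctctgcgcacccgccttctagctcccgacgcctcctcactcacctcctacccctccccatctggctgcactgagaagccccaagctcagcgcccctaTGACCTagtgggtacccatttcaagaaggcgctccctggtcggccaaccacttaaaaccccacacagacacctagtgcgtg
Hoxb8: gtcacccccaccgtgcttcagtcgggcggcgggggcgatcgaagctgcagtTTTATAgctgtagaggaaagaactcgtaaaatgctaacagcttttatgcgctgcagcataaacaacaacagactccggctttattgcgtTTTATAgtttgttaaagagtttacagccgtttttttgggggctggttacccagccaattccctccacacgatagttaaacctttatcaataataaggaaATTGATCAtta
Hoxa9: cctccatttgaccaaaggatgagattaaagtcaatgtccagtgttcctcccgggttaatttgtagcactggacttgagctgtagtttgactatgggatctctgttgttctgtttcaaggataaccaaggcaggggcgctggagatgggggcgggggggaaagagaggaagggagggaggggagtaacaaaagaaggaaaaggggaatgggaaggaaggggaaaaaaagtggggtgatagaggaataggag
Hoxa10: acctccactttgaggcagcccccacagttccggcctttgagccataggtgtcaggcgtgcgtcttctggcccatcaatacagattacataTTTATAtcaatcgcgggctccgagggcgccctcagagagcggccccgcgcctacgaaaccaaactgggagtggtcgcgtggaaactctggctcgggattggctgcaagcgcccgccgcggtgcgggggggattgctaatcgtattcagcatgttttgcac
Hoxd8: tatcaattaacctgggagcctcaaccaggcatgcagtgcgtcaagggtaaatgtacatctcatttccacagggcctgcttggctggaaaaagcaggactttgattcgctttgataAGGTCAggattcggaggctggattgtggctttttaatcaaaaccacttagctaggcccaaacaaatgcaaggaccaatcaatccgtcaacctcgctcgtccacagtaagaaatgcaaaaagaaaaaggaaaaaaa
In these windows AGGTCA was present in Hoxb4 and Hoxd8, TATAAA in Hoxb8 and Hoxa10, TGATNNAT in Hoxb8, and none of the 4 motifs in Hoxa9. The window of the other Hoxa10 start (chr6:52240855-52241104, minus), not shown, held none of the 4 motifs and 7 CG dinucleotides. RefSeq windows were at hand for 22 of the 38 listed genes (24 windows), and Hoxb2, Hoxb3 and Hoxc6 are not among them. Among the 24 Hox windows, 6 held AGGTCA, 4 TATAAA, 4 TGATNNAT and 2 TGACAG. The shares among all 32851 windows of this length were 14.0%, 12.4%, 7.68% and 15.9%. CG dinucleotides, the sites of DNA methylation, numbered 14 in the Hoxb4 window, 12 in Hoxb8, 3 in Hoxa9, 20 in Hoxa10 and 6 in Hoxd8, with a median of 12.5 over the Hox windows and 6 over all windows. A match is a run of letters and not a bound site.

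Ordered by paralog number, the Hox transcripts of Sox10+EpCAM+ fMaSC leaned to the head end, through Hoxb2, Hoxb3 and Hoxb4. Those of the other fractions did not. Paralogs 1 to 4 made up 86.1% and 79.2% of the summed Hox FPKM in Sox10+EpCAM+ fMaSC, 23.2% in EpCAM-negative stroma, 25.9% and 25.3% in CD24+CD49f+ fMaSC, and 24.2% and 23.3% in CD24low stroma. Hoxb2, Hoxb3 and Hoxb4 alone accounted for 80.3% and 72.3% in Sox10+EpCAM+ fMaSC, 11.8% in EpCAM-negative stroma, 15.6% and 13.7% in CD24+CD49f+ fMaSC, and 12.7% and 13.1% in CD24low stroma. These genes were grouped for their rank in Sox10+EpCAM+ fMaSC, so their large share there follows from that choice and is not a test. They also belong to paralogs 1 to 4. The other 5 libraries resembled one another in both shares. Paralogs 5 to 8 took 8.94% and 12.8% in Sox10+EpCAM+ fMaSC and 46.1% in EpCAM-negative stroma. Paralogs 9 and 10 took 4.48% and 6.02% in Sox10+EpCAM+ fMaSC and 29.5% in EpCAM-negative stroma. In absolute terms the paralog 2 genes held 50.5% of the EpCAM-negative stroma level in Sox10+EpCAM+ fMaSC, paralog 3 25.4% and paralog 4 8.94%. Paralogs 5 to 11 held 2.58%, 1.35%, 3.60%, 2.25%, 2.09%, 0.938% and 6.37%, in that order. Groups 1, 12 and 13 summed to 0.179 FPKM or less in every library. The higher shares in groups 2 to 4 were those of the cluster b genes. Outside cluster b, Hoxa2 held 0.883%, Hoxa3 4.36%, Hoxd3 3.33%, Hoxa4 8.83% and Hoxc4 2.64%. Outside Hoxb2, Hoxb3 and Hoxb4, the summed Hox level of Sox10+EpCAM+ fMaSC was 2.30% of EpCAM-negative stroma, beside 0.980% for the fibroblast markers. The part of fibroblast transcripts in this low level was not tested.

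**Figure D3:**
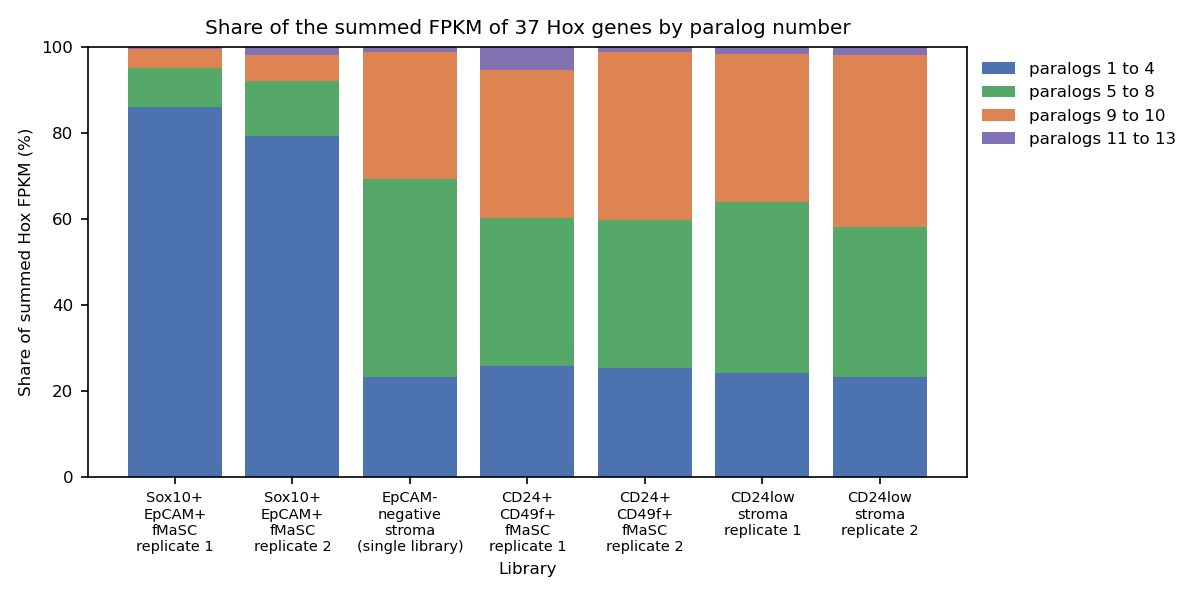
Share of the summed FPKM of the 37 Hox genes (%) taken by each range of paralog numbers, as 1 stacked bar per library. Paralogs 1 to 4 take 86.1% and 79.2% in the Sox10+EpCAM+ libraries and 23.2% to 25.9% in the other 5.

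Between CD24+CD49f+ fMaSC and CD24low stroma the Hox genes differed less. Of the 22 tested, 3 were lower in fMaSC at an adjusted p under 0.05, where 2.94% of all tested genes were called lower, and none was higher, where 7.78% were. The 3 were Hoxa9 (-0.94 ± 0.19, adjusted p = 0.0294), Hoxc8 (-1.04 ± 0.22, adjusted p = 0.0362) and Hoxb7 (-0.67 ± 0.15, adjusted p = 0.0448). The median log2 fold of the 22 was -0.53, against 0.13 for all tested genes. These calls depend on the settings: the count was 7 without CD24+CD49f+ replicate 2, 1 without CD24low replicate 2 and 0 without either Sox10+EpCAM+ library, without CD24+CD49f+ replicate 1 or without CD24low replicate 1. With no level filter 0 of the 37 were called, against 0.889% of all genes, and under both TPM scalings the count was 0. At an unadjusted p under 0.05, 9 of the 22 were lower, as were 8.91% of all tested genes. Both CD24+CD49f+ libraries lay below both CD24low libraries for 17 of the 37 genes, which was so for 14.0% of all genes. Hoxc11 alone was higher in both, and 19 genes overlapped.

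Levels in CD24+CD49f+ fMaSC ran from 34.4% (Hoxc8) to 95.2% (Hoxd3) of the CD24low mean over the 22 tested genes. The fibroblast markers in the same libraries ran from 29.7% (Pdgfrb) to 63.8% (Pdgfra), with 38.6% for their sum, and 4 pericyte markers stood at 26.2%. Sums of leukocyte and skeletal muscle markers stood at 23.1% and 34.9%, and that of endothelial markers at 70.3%. Without Hoxb2, Hoxb3 and Hoxb4, the Hox sum stood at 57.9%. CD24+CD49f+ replicate 2 had a Hox sum of 64.2 FPKM (replicate 1, 46.9 FPKM) and a fibroblast marker sum of 3332 FPKM (replicate 1, 2083 FPKM). On the deposited scale the Hox difference lay mostly in cluster c, with 29.2 FPKM against 14.7 FPKM in replicate 1. For clusters a, b and d the sums were 13.1, 14.1 and 7.87 FPKM in replicate 2 against 12.3, 12.7 and 7.21 FPKM. The pericyte marker sum was lower in replicate 2 on the deposited scale, at 17.7 FPKM against 30.1 FPKM. The summed FPKM of all genes was 424984 in replicate 2 and 752737 in replicate 1. Scaled to the same sum, clusters a, b and d would also be higher in replicate 2, and the pericyte sums would be similar. Markers of glia and melanoblasts, cells that also bear CD49f or Sox10, instead lay above the stroma level. These markers summed to 98.4 and 56.9 FPKM in CD24+CD49f+ fMaSC, against 10.4 and 7.53 FPKM in CD24low stroma. Their sums also lay above stroma in the Sox10+EpCAM+ sort, at 16.4 and 24.7 FPKM against 3.04 FPKM. The part of fibroblast, pericyte, endothelial or glial transcripts in the Hox levels of CD24+CD49f+ fMaSC was not tested.

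**Figure D4:**
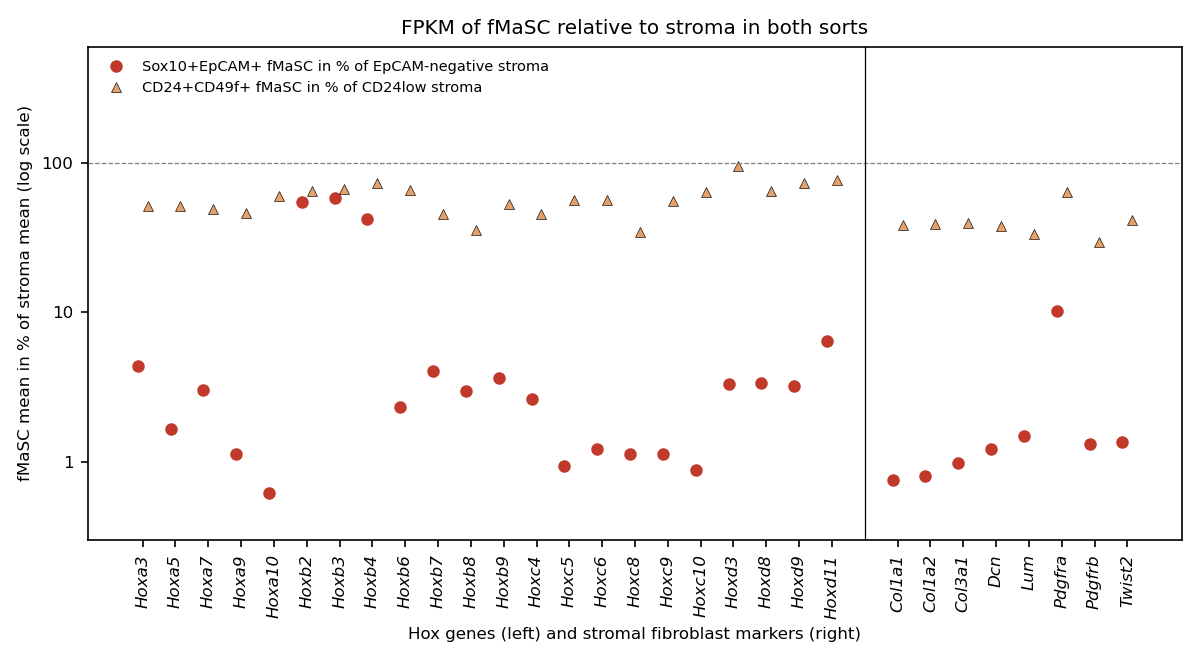
Mean FPKM of fMaSC in percent of the matching stroma (log axis) for the 22 tested Hox genes and, right of the vertical line, 8 fibroblast markers. Circles show Sox10+EpCAM+ fMaSC against EpCAM-negative stroma and triangles CD24+CD49f+ fMaSC against CD24low stroma, and the dashed line marks 100%. Hoxb2, Hoxb3 and Hoxb4 are the genes whose circles come near their triangles, while the other Hox circles lie between 0.618% and 6.39% and those of the fibroblast markers between 0.753% and 10.3%.

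The fMaSC fractions of the sorting strategies also differed from each other in Hox genes. Set against CD24+CD49f+ fMaSC, 12 of the 22 tested Hox genes were lower in Sox10+EpCAM+ fMaSC, where 8.04% of all tested genes were, and none was higher, where 1.95% were. Both Sox10+EpCAM+ libraries lay below both CD24+CD49f+ libraries for 30 of the 37 genes, which was so for 23.0% of all genes. This comparison uses the same Sox10+EpCAM+ libraries as the comparison with EpCAM-negative stroma and is not independent of it. The median log2 fold of the 22 was -0.97, against -0.01 for all tested genes. Hoxa10 (-2.17 ± 0.16, adjusted p = 0.00158), Hoxa9 (-2.10 ± 0.19, adjusted p = 0.00273) and Hoxc6 (-2.77 ± 0.27, adjusted p = 0.00334) kept their calls in all 12 alternatives. Hoxc10 (-3.02 ± 0.42, adjusted p = 0.0107) and Hoxd8 (-1.97 ± 0.24, adjusted p = 0.00703) lost theirs in 3 and 2 of 12. The other called genes were Hoxa3, Hoxa5, Hoxb6, Hoxb7, Hoxc4, Hoxc8 and Hoxd3. The count was 3 without Sox10+EpCAM+ replicate 1, 4 without replicate 2 and 4 with no level filter, where 2.00% of all genes were called lower. Hoxb2 (-0.18 ± 0.15, adjusted p = 0.563) and Hoxb4 (-0.22 ± 0.19, adjusted p = 0.570) had the smallest folds of the 22.

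The difference between the strategies in the fMaSC-stroma fold was itself tested. It passed for 2 of the 22 Hox genes, Hoxa10 (-2.04 ± 0.25, adjusted p = 0.0280) and Hoxc6 (-3.01 ± 0.43, adjusted p = 0.0367), where 1.44% of all tested genes were called in that direction. For Hoxb2, Hoxb3 and Hoxb4 the difference was -0.21 ± 0.24, -0.07 ± 0.40 and -0.35 ± 0.30 (adjusted p = 0.743, 0.946 and 0.669). Both calls were lost without either Sox10+EpCAM+ library, without either CD24low library, under both TPM scalings and with no level filter.

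The stromal fractions had similar summed Hox levels. EpCAM-negative stroma held 102% of the summed Hox FPKM of CD24low stroma, and none of the 22 tested genes was called in either direction by limma, where 0.0277% of all tested genes were. At an unadjusted p under 0.05, 1 of the 22 passed, as did 3.02% of all tested genes, so 1 is near the background. Their median log2 fold was 0.15, against -0.01 for all tested genes. Their other cell markers differed, with a sum for 5 leukocyte markers of 7.96 FPKM in EpCAM-negative stroma against 58.7 and 52.6 FPKM in CD24low stroma. The sum for 5 endothelial markers was 10.1 FPKM in EpCAM-negative stroma against 21.9 and 20.2 FPKM in CD24low stroma, and the part of either in the Hox comparison was not tested. The Hox folds ran from -0.61 ± 0.52 for Hoxc10 to 0.81 ± 0.27 for Hoxc8. With a single EpCAM-negative library, small differences between the stromal fractions were not detectable. With all fMaSC set against all stroma libraries, 11 of the 22 were called lower, where 9.50% of all tested genes were, and the count was 0 without either Sox10+EpCAM+ library, 2 without CD24low replicate 1, 3 without EpCAM-negative stroma and 4 without CD24+CD49f+ replicate 1. The largest called log2(FPKM + 1) folds in that pooled comparison were those of Hoxc6 (-2.00 ± 0.60, adjusted p = 0.0494) and Hoxc8 (-1.81 ± 0.40, adjusted p = 0.0196).

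Hox genes of the tail end, paralogs 11 to 13, were low in every library. Hoxd11, which patterns the forearm and kidney, was the only one to pass the level filter. It had 0 and 0.0681 FPKM in Sox10+EpCAM+ fMaSC, 0.532 FPKM in EpCAM-negative stroma, 1.11 and 0.471 FPKM in CD24+CD49f+ fMaSC, and 1.18 and 0.887 FPKM in CD24low stroma. Its fold did not pass in any of these comparisons (adjusted p = 0.160 in the Sox10+EpCAM+ sort). On the deposited scale, paralog 11 genes stood highest in CD24+CD49f+ replicate 1, with a sum of 2.35 FPKM. The sum was 0.738 FPKM in replicate 2 and 1.56 and 1.39 FPKM in CD24low stroma. As deposited, CD24+CD49f+ replicate 1 also had the highest Hoxa11 (0.673 FPKM), Hoxc11 (0.559 FPKM) and Hoxd10 (0.995 FPKM) of all 7. Its replicate did not share these values (0.0738, 0.193 and 0.474 FPKM). The summed FPKM of all genes was 752737 in CD24+CD49f+ replicate 1, the largest of all 7, and 387955 in CD24low replicate 1. Scaled to the same sum, CD24low replicate 1 would be the higher of these libraries in the paralog 11 sum and in Hoxd10. Hoxa11 shares 800 exon bases, 35.0% of its annotated length, with the antisense gene Hoxa11os. As deposited, Hoxa11os was also highest in CD24+CD49f+ replicate 1, at 1.13 FPKM. Genes of paralog groups 12 and 13, among them Hoxb13 (a prostate and tail gene), Hoxc13 (a regulator of hair and nail) and Hoxa13 and Hoxd13 (genes of digits and genitals), stayed at 0.0880 FPKM or less in each of the 7 libraries.

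HOX proteins bind DNA with partners of the PBX, MEIS and PREP families. Of 9 such genes 8 were tested. In Sox10+EpCAM+ fMaSC against EpCAM-negative stroma 1 was higher and 1 lower, where 12.5% and 13.6% of all tested genes were, a share near the background, and the median log2 fold was -0.44. Meis2 had 3.25 and 4.70 FPKM in Sox10+EpCAM+ fMaSC, 24.9 FPKM in EpCAM-negative stroma, 8.01 and 13.0 FPKM in CD24+CD49f+ fMaSC, and 20.2 and 14.6 FPKM in CD24low stroma. It was lower in the Sox10+EpCAM+ sort (-2.40 ± 0.36, adjusted p = 0.00548). Pbx3 had 13.4 and 12.8 FPKM in Sox10+EpCAM+ fMaSC and 5.22 FPKM in EpCAM-negative stroma (1.18 ± 0.24, adjusted p = 0.0167), a call lost under both TPM scalings and without either Sox10+EpCAM+ library. No cofactor was called between CD24+CD49f+ fMaSC and CD24low stroma, where 2.94% of all tested genes were called lower and 7.78% higher in fMaSC.

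Polycomb proteins keep Hox genes silent and trithorax proteins keep them active. Of 21 such chromatin regulators, all tested, 4 were higher and none lower in Sox10+EpCAM+ fMaSC against EpCAM-negative stroma, where 12.5% and 13.6% of all tested genes were, with a median log2 fold of 0.26 against 0.09 for all genes. The 4 are Polycomb repressive complex 1 genes, and 4 higher among 21 is not far from the background share. Phc2 had 45.3 and 45.7 FPKM in Sox10+EpCAM+ fMaSC and 16.1 FPKM in EpCAM-negative stroma (1.44 ± 0.22, adjusted p = 0.00538). Cbx2 had 8.26 and 7.42 FPKM in Sox10+EpCAM+ fMaSC and 2.05 FPKM in EpCAM-negative stroma (1.53 ± 0.26, adjusted p = 0.00851). Bmi1 and Cbx7 had folds of 1.15 ± 0.20 (adjusted p = 0.00899) and 1.04 ± 0.19 (adjusted p = 0.0106). All 4 calls were lost under both TPM scalings, with the sign kept, and those of Phc2, Cbx2 and Bmi1 also without Sox10+EpCAM+ replicate 1. In CD24+CD49f+ fMaSC against CD24low stroma Phc2, Cbx2 and Cbx7 were higher, where 7.78% of all tested genes were, again not far from the background. Their log2 folds were 1.36 ± 0.18, 1.23 ± 0.21 and 0.77 ± 0.15 (adjusted p = 0.00713, 0.0194 and 0.0302). Those calls were lost under both TPM scalings and without CD24low replicate 2. No regulator was called between the fMaSC fractions, where 8.04% of all tested genes were called lower and 1.95% higher in Sox10+EpCAM+ fMaSC.

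Of 11 noncoding genes of the Hox clusters 3 were tested. Hoxd3os1, antisense to Hoxd3, was listed at 0 in both Sox10+EpCAM+ libraries and had 1.48 FPKM in EpCAM-negative stroma, with an adjusted p of 0.0219 (limma), and the call was lost with no level filter and without either Sox10+EpCAM+ library. Hotairm1, at the head end of cluster a, had 0.123 and 0.351 FPKM in Sox10+EpCAM+ fMaSC, against 1.80 and 1.39 FPKM in CD24+CD49f+ fMaSC (-1.07 ± 0.23, adjusted p = 0.0385, lost in 8 alternatives). Hotair and Hottip, transcripts from the tail ends of clusters c and a, stayed at 0.0840 FPKM or less in every library. The 6 ParaHox and Cdx genes, relatives and activators of the Hox clusters, did not exceed 0.0999 FPKM and none was tested.

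Other transcription factors of body and limb position included genes higher in either cell type. Of 18 such genes 16 were tested, and in Sox10+EpCAM+ fMaSC against EpCAM-negative stroma 3 were higher and 9 lower, where 12.5% and 13.6% of all tested genes were, with a median log2 fold of -1.91 against 0.09 for all genes. Irx3, of the Iroquois family, had 39.5 and 46.7 FPKM in Sox10+EpCAM+ fMaSC, 1.01 FPKM in EpCAM-negative stroma, 21.1 and 22.4 FPKM in CD24+CD49f+ fMaSC, and 1.62 and 1.09 FPKM in CD24low stroma. Lmx1b, which specifies the back of the limb, had 18.0 and 18.6 FPKM in Sox10+EpCAM+ fMaSC, 0.287 FPKM in EpCAM-negative stroma, 8.15 and 11.1 FPKM in CD24+CD49f+ fMaSC, and 0.415 and 0.764 FPKM in CD24low stroma. Both were higher in fMaSC of both sorts, without overlap. Their log2 folds were 4.45 ± 0.23 (adjusted p = 0.000276) and 3.91 ± 0.26 (adjusted p = 0.000387) in the Sox10+EpCAM+ sort, and 3.28 ± 0.19 (adjusted p = 0.000496) and 2.74 ± 0.21 (adjusted p = 0.00123) in the CD24 sort. Irx5 followed with 3.24 ± 0.19 and 2.62 ± 0.15 (adjusted p = 0.000319 and 0.000510). These 6 calls held in every alternative run.

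The 9 lower genes include known regulators of mesenchyme. Prrx1, a gene of limb and skin mesenchyme, had 0.381 and 0.463 FPKM in Sox10+EpCAM+ fMaSC, 47.8 FPKM in EpCAM-negative stroma, 19.2 and 46.3 FPKM in CD24+CD49f+ fMaSC, and 49.0 and 41.6 FPKM in CD24low stroma. Tbx15, which sets the dorsal skin pattern, had 0.533 and 0.395 FPKM in Sox10+EpCAM+ fMaSC, 33.1 FPKM in EpCAM-negative stroma, 9.92 and 35.3 FPKM in CD24+CD49f+ fMaSC, and 27.8 and 34.0 FPKM in CD24low stroma. For both genes CD24+CD49f+ replicate 2 reached the stroma level and replicate 1 did not. The log2 folds in the Sox10+EpCAM+ sort were -5.10 ± 0.48 (adjusted p = 0.00111) and -4.54 ± 0.65 (adjusted p = 0.00445), followed by Shox2 (-3.54 ± 0.37, adjusted p = 0.00164) and Tbx18 (-3.37 ± 0.34, adjusted p = 0.00142). In the CD24 sort 2 of the list were lower, where 2.94% of all tested genes were, namely Emx2 (-1.13 ± 0.22, adjusted p = 0.0289) and Tbx2 (-0.94 ± 0.19, adjusted p = 0.0324). Tbx2 acts in mammary placode formation. Those 2 calls were lost in 9 and 10 of 13 alternatives.

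**Figure D5:**
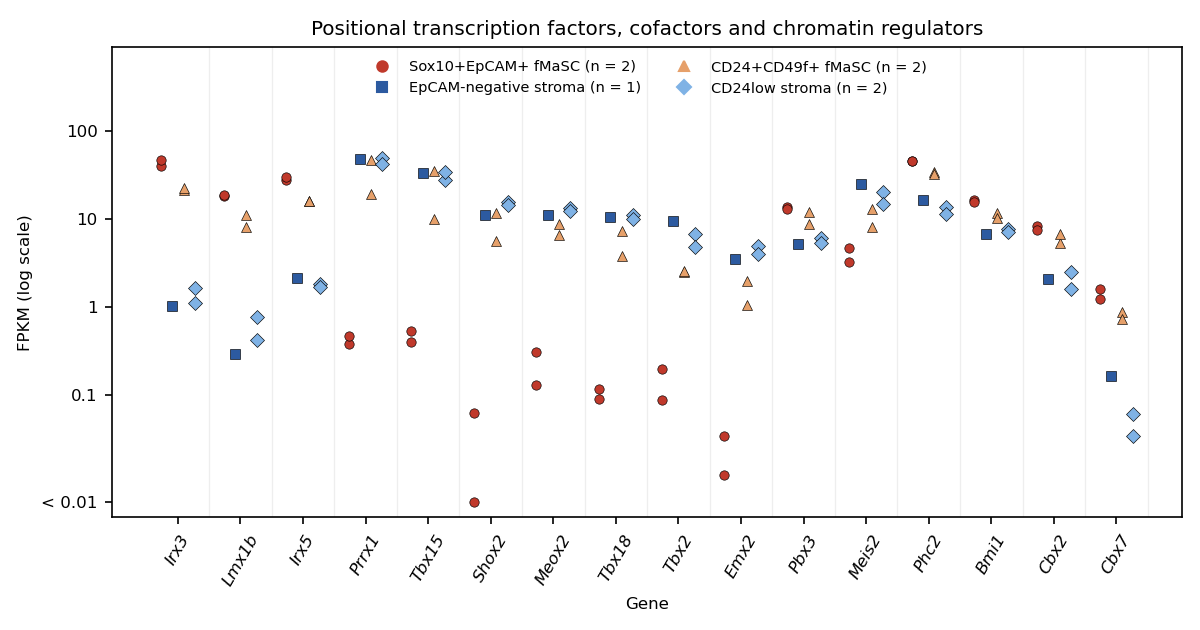
FPKM (log axis) of the positional transcription factors, cofactors and chromatin regulators named in the text, 1 point per library, with values under 0.01 FPKM at the lowest tick. Irx3, Lmx1b and Irx5 are high in both fMaSC groups. Prrx1 to Emx2 are lowest in Sox10+EpCAM+ fMaSC with CD24+CD49f+ libraries spread between those and the stroma level. The cofactors and chromatin regulators differ less, Meis2 and Cbx7 excepted.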

How the data were processed

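RNA from 7 libraries of sorted CD1 cells at E17.5 was made into TruSeq libraries and read as 100-base paired ends, per the labels' protocols. The submitters' processing notes name STAR, Cufflinks and the build GRCm38/mm10, and versions and the strand setting are not given in the sources used here. The deposited values are FPKM, 1 column per library, per the file headers, and no counts were used. Depth was estimated from low values (63.2% to 69.5% within 0.15 of a whole number of fragments), so fragment numbers are approximate. Hox genes were taken by symbol, and no symbol was repeated. The members, gene lists and tests were chosen with earlier results of these data known. Values were transformed to log2(FPKM + 1), which understates changes of low genes, and a gene was kept where 2 or more libraries had at least 1 FPKM (14418 genes). A limma model (version 3.58.1, R 4.3.3) of the 4 groups was used, with trended empirical Bayes variances (3 residual degrees of freedom, and cell type plus strategy for the pooled comparison, 4). Tests were two-sided, Benjamini-Hochberg adjusted over all genes, with a threshold of 0.05. Replicates were numbered in the order of the series and pair no libraries. Named genes were the tested Hox genes and, per other list, up to 6 called genes with the largest folds, and Hoxb3os, Hoxa11os, Hotair, Hottip and the marker genes were named after their values were seen. Simulated data held 14418 genes, of which 200 were changed. Of genes changed by 1 and 2 (log2), 3% and 86% were recovered in the Sox10+EpCAM+ sort, 14% and 89% for the CD24 sort, and 21% and 98% between the fMaSC fractions. In the data more genes were called in these comparisons (3762, 1545 and 1440). The adjustment is therefore stricter in the simulation, and its rates do not carry over to the data. Exon overlap came from the GENCODE annotation of GRCm38 and upstream sequences from RefSeq (GRCm38.p6). Alternatives were another pseudocount, no level filter, TPM scaling with and without mitochondrial genes, quantile scaling, leaving out each library, and fitting only the groups compared. Tables used Python 3.11.15 and pandas 2.3.3.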

Additional observations from a re-analysis of the deposited data

Results flagged for a closer look

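The fMaSC-stroma fold differed between the sorting strategies for 2 Hox genes and 3 other positional transcription factors, by a test of the difference itself (limma, Benjamini-Hochberg over all tested genes). For Hoxa10 the log2 fold was -2.65 in the Sox10+EpCAM+ sort and -0.61 in the CD24 sort, a difference of -2.04 ± 0.25 (SE; adjusted p = 0.0280). Hoxc6 had folds of -3.80 and -0.80, a difference of -3.01 ± 0.43 (adjusted p = 0.0367). Meox2, a mesoderm gene, differed by -2.63 ± 0.31 (adjusted p = 0.0248), Prrx1 by -4.52 ± 0.62 (adjusted p = 0.0335) and Tbx2 by -2.26 ± 0.30 (adjusted p = 0.0323). The fold was below 0 in both sorts for each of the 5 genes. The calls were lost in 7 of 11 alternatives for Hoxa10, Hoxc6, Meox2 and Tbx2 and in 8 of 11 for Prrx1, each time also without either Sox10+EpCAM+ library, and the highest adjusted p was 0.254, 0.218, 0.228, 0.247 and 0.202. CD24+CD49f+ fMaSC held 38.6% of the CD24low level of fibroblast markers and Sox10+EpCAM+ fMaSC 0.980% of that of EpCAM-negative stroma, and the part of these transcripts in the differences was not tested.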

How the results depend on the processing

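Across 13 alternative settings, the 46 called Hox folds gave 552 values, of which 365 kept the call, 187 were no longer past the threshold and 0 changed sign. The count of called Hox genes was 18 in the Sox10+EpCAM+ sort, 16 to 21 under other settings and 9 to 19 with a library left out. For CD24+CD49f+ fMaSC against CD24low stroma it was 3, with 1 at a pseudocount of 0.1, 0 with no level filter, 0 under TPM scaling, 0 under TPM scaling without mitochondrial genes, 7 under quantile scaling, 0 with the libraries of these groups alone, and 0 to 7 with a library left out. For all fMaSC against all stroma it was 11, with 5 at a pseudocount of 0.1, 4 with no level filter, 6 under TPM scaling and 0 to 16 with a library left out. Between the fMaSC fractions it was 12, with 4 with no level filter, 4 under TPM scaling, 5 under TPM scaling without mitochondrial genes, and 3 to 14 with a library left out. For the difference between strategies it was 2, with 7 at a pseudocount of 0.1, 0 with no level filter, 0 under both TPM scalings and 0 to 8 with a library left out. Between the stromal fractions it was 0 in every alternative. The summed Hox level of Sox10+EpCAM+ fMaSC in percent of EpCAM-negative stroma was 8.42%, and 4.84% under TPM scaling. Where a library left out ended a call, fewer samples entered the fit, and the cause of the other changes was not tested. A group left with 1 library was assumed to vary like the others, and without the EpCAM-negative library its comparisons gave no value. No paired analysis was possible because the labels give no replicate numbers. The choice among repeated symbols did not arise. Values under about 0.02 FPKM stand for about 1 fragment, so an order among Hox genes that low was not detectable at this depth.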
